A study of Mus musculus with 9 samples.

Results

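Matricellular proteins are secreted into the extracellular matrix, where they act less as scaffolding than as modulators of how cells attach, migrate and receive growth factors. They are low in most resting adult tissues and are best known from development, wound repair and tumour stroma, and cultured fibroblasts secrete many of them. Described here are 10 mouse genes of this class. Smoc1, Smoc2 and Sparc belong to the SPARC family of calcium-binding matrix proteins. Thbs1, Thbs2 and Comp are thrombospondins. Tnc encodes tenascin-C, Postn periostin, Spp1 osteopontin and Coch cochlin.

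The arrays carried 12 probes for these 10 genes, matched through the RefSeq accession of each probe. Where a gene had 2 probes (Sparc and Tnc), its probe was chosen by the higher mean signal over the 9 arrays. All 10 genes passed the filter on dim probes and were among 21797 features tested, of which 12434 were named genes. The filter asked for signals well above background on every clone of at least 1 group. Coch, Comp, Tnc and Postn passed it through the diploid and tetraploid clones only, and Thbs2 through the diploid clones alone. For these genes the filter itself leans towards lower triploid signals. The same holds for genes of the related lists with triploid signals not well above background. The list of genes was drawn up with earlier results of the same arrays known, among them the low Smoc2, Thbs1 and Coch signals of the triploid clones. Their differences between groups are therefore a description and not independent support.

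Gene expression was measured on 9 one-colour Agilent arrays, 1 for each clone of untreated p53-/- mouse embryonic cells grown in serum. There were 3 diploid clones (RRI2, RRI15 and RRI2-1), 3 triploid clones (RRI2-5, RRI2-12 and RRI2-15) and 3 tetraploid clones (RRI2-2, RRI2-4 and RRI2-6), called clones 1, 2 and 3 of their group in that order. Loss of p53 was shared by all groups, so no group had wild-type p53, and each array was 1 clone. The series title places the comparison in the study of triploidy and genome instability in tumour formation. The labels do not say whether clones came from separate embryos or cultures. The p-values therefore measure the spread between these clones only.

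Between 44.8% and 50.9% of spots were well above background on each array, and none was saturated. The number of arrays, 3 a group, limits the precision. The labels name the cells only as embryonic: 9 or 10 of 10 genes of a mesenchyme and fibroblast list were well above background on every array, while Cdh1, Epcam, Ptprc and Pou5f1 were not on any. Single markers of other types were well above background on all 9 arrays, among them Krt14 (epithelium), Kdr and Pecam1 (endothelium), Csf1r and Cd14 (macrophage) and Nanog (pluripotent cells). The summed linear level of 8 epithelial markers was 0.479 to 2.52 over the clones, and that of the mesenchyme list 735 to 1670. The Trp53 probe was well above background only in diploid clone 2, and where it lies relative to the deleted part is not given in the sources used here. Y-linked Ddx3y and Eif2s3y were not well above background in the 3 triploid clones and tetraploid clone 3 and were bright in the other 5 clones. In triploid against diploid clones, ploidy and the presence of Y-linked signal therefore cannot be told apart. Diploid clone 1 was alone on its slide, and the other 8 arrays shared a second slide.

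Values are log2 signals relative to the 75th percentile of the clone's own array, so 0 is the level of that percentile. A signal was counted as dark where it was not well above background. Differences are of group means with their standard errors (SE), tested with limma across all 21797 features with Benjamini-Hochberg adjustment. A gene was called at an adjusted p under 0.05. As each clone is a bulk sample, fewer cells expressing a gene and less RNA per cell cannot be told apart.

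Signals in the triploid clones were lower than in the diploid and tetraploid clones for Smoc2, Thbs1 and Coch, and lower than in the tetraploid clones for Comp. Sparc, by contrast, lay within a 1.60-fold range over all 9 clones. With Sparc, 6 genes were called in no comparison, and 5 of these (Smoc1, Thbs2, Tnc, Postn and Spp1) varied widely between clones of the same ploidy in at least 2 of the 3 groups.

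**Figure D1:**
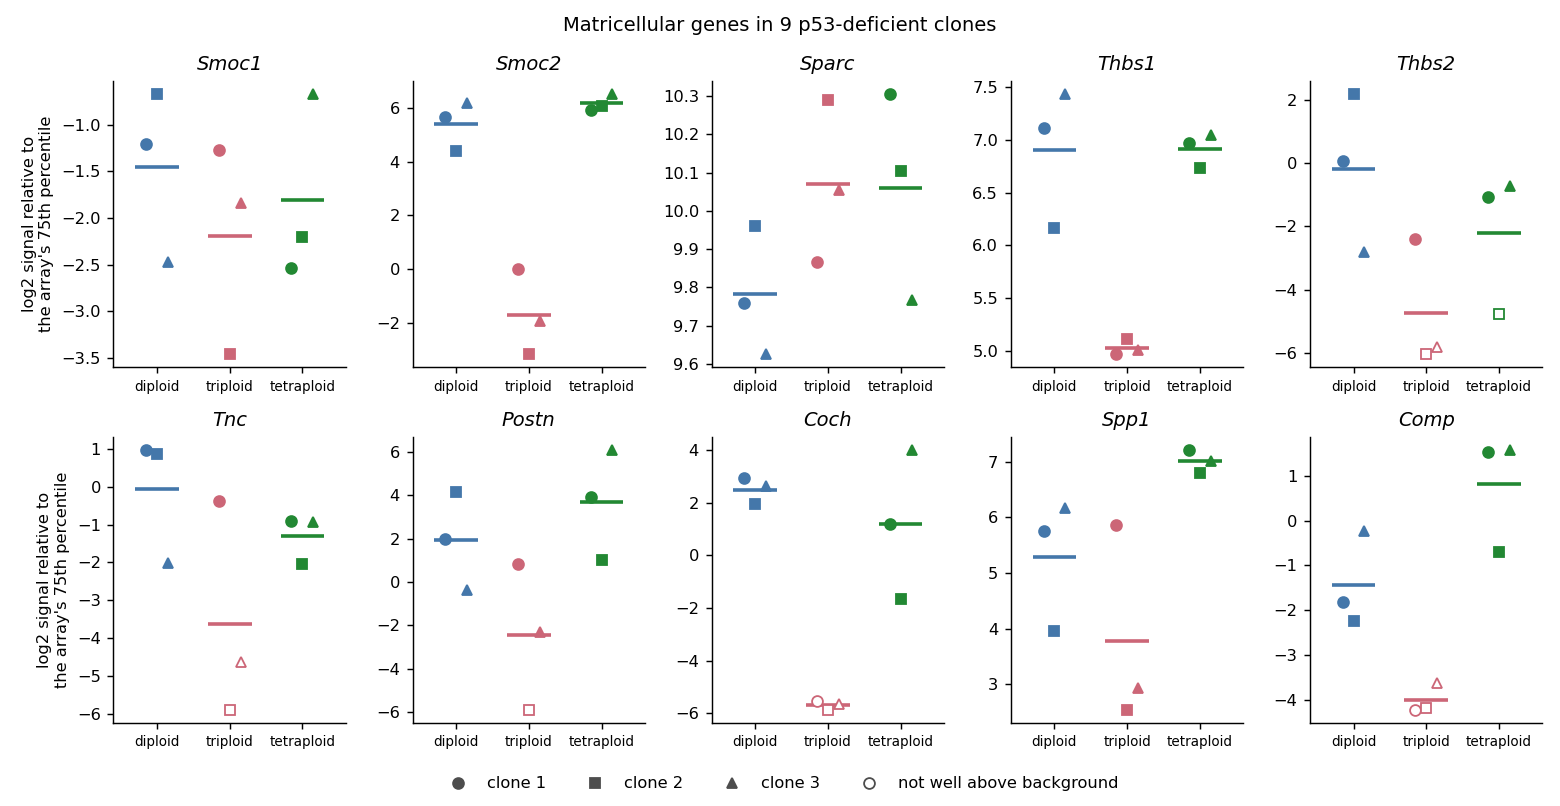
Log2 signal of each of the 10 genes (y axis, relative to the array's 75th percentile; each panel has its own scale) in the 3 clones of each ploidy (x axis). Points are clones, open points were not well above background, and bars are group means; the triploid points of Smoc2, Thbs1, Coch and Comp lie below all diploid and tetraploid points.

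Smoc2, a secreted calcium-binding protein known to affect growth factor signalling and cell migration, showed the clearest separation by ploidy. Its processed signals were 16800, 5474 and 15730 in diploid clones 1 to 3. They were 224, 32.5 and 80.0 in the triploid clones and 16430, 18910 and 37730 in the tetraploid clones. Every triploid clone was far below every other clone, although all 9 signals were well above background.

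On the log2 scale the Smoc2 group means were 5.42 ± 0.92 in diploid, -1.70 ± 1.60 in triploid and 6.18 ± 0.31 in tetraploid clones (SD, n = 3 each). The triploid clones were 139-fold below the diploid clones (log2 difference -7.12 ± 0.73 SE, adjusted p = 0.00424, limma). Against the tetraploid clones they were 236-fold lower (-7.88 ± 0.73, adjusted p = 0.00289, limma). Smoc2 was called in both comparisons under all 19 alternative settings, with differences from -7.97 to -6.08 against diploid and from -8.73 to -6.85 against tetraploid clones. Tetraploid and diploid clones differed by 0.76 ± 0.73 (adjusted p = 0.660, limma; 95% interval -0.89 to 2.41).

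Smoc1, the close relative of Smoc2 and known as a modulator of BMP signalling, did not follow it. Its values were -1.20, -0.67 and -2.47 in the diploid, -1.27, -3.46 and -1.84 in the triploid and -2.54, -2.20 and -0.67 in the tetraploid clones. The 3 groups overlapped. The triploid minus diploid difference was -0.74 ± 0.70 (adjusted p = 0.596, limma), with a 95% interval from -2.31 to 0.83, which still holds large differences either way.

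Sparc, the founding member of its family and a collagen-binding protein abundant in fibroblasts, was bright in every clone. Values were 9.76, 9.96 and 9.63 in the diploid, 9.87, 10.29 and 10.05 in the triploid and 10.31, 10.10 and 9.77 in the tetraploid clones. Groups overlapped in each comparison. The triploid minus diploid difference was 0.29 ± 0.23 (adjusted p = 0.516, limma), and its 95% interval of -0.23 to 0.80 leaves out differences of the size seen for Smoc2 or Thbs1. Against the tetraploid clones the difference was 0.01 ± 0.23, with an interval of -0.50 to 0.53. Its sign turned to -0.21 under quantile normalization, to -0.01 when the scaling percentile was taken over probes detected on all arrays, and to -0.01 when all probes of a gene were averaged.

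The other Sparc probe, which was not used, spread more within groups, at 4.38, 3.66 and 2.90 in the diploid, 3.45, 4.58 and 4.19 in the triploid and 4.22, 4.07 and 4.01 in the tetraploid clones. Its triploid minus diploid difference was 0.43 ± 0.40 (adjusted p = 0.583, limma over 25469 probes). Neither probe separated the groups. Of the 3 SPARC family genes among the 10, only Smoc2 was called lower in the triploid clones. Of all features, 1.22% were called lower against diploid and 1.61% against tetraploid clones.

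Thbs1, a secreted activator of latent TGF-beta and inhibitor of blood vessel growth, had lower signals in the triploid clones by a smaller factor than Smoc2. Values were 7.12, 6.16 and 7.44 in the diploid, 4.97, 5.11 and 5.01 in the triploid and 6.97, 6.74 and 7.05 in the tetraploid clones. The 3 triploid values lay within 0.14 of each other and below all other clones. Thbs1 was 3.67-fold lower than in diploid clones (-1.88 ± 0.32, adjusted p = 0.0289, limma) and 3.70-fold lower than in tetraploid clones (-1.89 ± 0.32, adjusted p = 0.0214, limma). Tetraploid and diploid means, 6.92 and 6.90, differed by 0.01 ± 0.32, with a 95% interval of -0.70 to 0.72. The sign of that difference turned in 4 of 19 alternatives.

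The call of Thbs1 against diploid clones was lost when diploid clone 1 or 3, triploid clone 2 or 3 or tetraploid clone 1 was left out, with adjusted p between 0.0553 and 0.105 (limma). Against tetraploid clones it was lost without triploid clone 2 or 3 or tetraploid clone 1 or 3, with adjusted p between 0.0747 and 0.0836. With no filter on dim probes it was lost in both comparisons (adjusted p = 0.0750 and 0.0573, limma), and with only the 2 groups in the fit against diploid clones (adjusted p = 0.0596, limma). The differences themselves stayed between -2.25 and -1.61 and between -2.03 and -1.82.

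Comp, the cartilage oligomeric matrix protein that binds collagen fibrils, was dark in all 3 triploid clones. It was well above background in every other clone, at -1.82, -2.24 and -0.24 in the diploid and 1.53, -0.71 and 1.58 in the tetraploid clones. Where a gene was dark in a whole group, its fold is given as at least the ratio to the lowest signal that was well above background on those arrays. Where a dark signal lay above that level, its measured value was used, as for Comp in triploid clone 3 (-3.62 against -3.69). A dark signal can thus exceed the lowest detected one, so these bounds are approximate. Triploid clones were at least 22.6-fold below tetraploid clones (fitted difference -4.80 ± 0.68, adjusted p = 0.0116, limma). They were at least 4.80-fold below diploid clones, which did not pass the threshold (-2.57 ± 0.68, adjusted p = 0.0870, limma).

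The tetraploid minus diploid difference of Comp was 2.23 ± 0.68 (adjusted p = 0.178, limma), with tetraploid clone 2 below diploid clone 3. Without tetraploid clone 3 the call of Comp against tetraploid clones was lost (adjusted p = 0.0534, limma), and without tetraploid clone 2 Comp passed against diploid clones (adjusted p = 0.0427, limma). In a list of 7 cartilage markers, 4 to 6 were well above background in diploid, 3 in triploid and 5 or 6 in tetraploid clones. Acan, Col9a1 and Sox9 were well above background in all 9 clones, and Matn1 was dark in all 9. Col2a1, Matn3 and Hapln1 were dark in all triploid clones, but not only there. Col2a1 and Matn3 were each well above background in 2 of 3 diploid and 2 of 3 tetraploid clones. Hapln1 was so in 1 of 3 diploid and all 3 tetraploid clones. The summed linear level of that list was 0.744 to 7.01 in diploid, 0.522 to 1.16 in triploid and 1.23 to 2.53 in tetraploid clones, relative to the array's 75th percentile. Its part in the Comp result was not tested.

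Thbs2, a relative of Thbs1 that also restrains blood vessel growth and is known for its role in collagen fibril assembly, varied widely between clones of each ploidy. Its values were 0.06, 2.17 and -2.79 in the diploid clones and -2.38 in triploid clone 1, with triploid clones 2 and 3 dark. In tetraploid clones 1 and 3 it was at -1.08 and -0.74, and tetraploid clone 2 was dark. Triploid clone 1 was above diploid clone 3, so the groups overlapped. The triploid minus diploid difference was -4.55 ± 1.50 (adjusted p = 0.139, limma). With dark signals set to the lowest detected level it was -3.13. Of the 3 thrombospondins among the 10 genes, Thbs1 was called lower against diploid clones, and Thbs1 and Comp against tetraploid clones. Of all features, 1.22% were called lower against diploid and 1.61% against tetraploid clones. Comp (fitted difference -2.57) and Thbs2 also had lower triploid means against diploid clones, without passing the threshold. Thbs3, a thrombospondin of a related list, was not called against diploid (-0.38 ± 0.26) or tetraploid clones (-0.69 ± 0.26).

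Coch, a secreted protein of the inner ear matrix, was dark in all 3 triploid clones. It stood at 2.92, 1.94 and 2.62 in the diploid clones. The tetraploid clones were spread widely, at 1.19, -1.67 and 4.02, but each was well above background. Triploid clones were at least 74.2-fold below diploid clones (fitted difference -8.17 ± 1.12, adjusted p = 0.0133, limma). They were at least 29.9-fold below tetraploid clones (-6.85 ± 1.12, adjusted p = 0.0193, limma).

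In the tetraploid clones the Coch SD of 2.84 was larger than that of 99.6% of features. The tetraploid minus diploid difference of -1.31 ± 1.12 (adjusted p = 0.613, limma) turned to 0.11 without tetraploid clone 2. The call against diploid clones was lost without diploid clone 1 or 3 or triploid clone 2 or 3, with adjusted p between 0.0526 and 0.0562 (limma). Against tetraploid clones it was lost without triploid clone 2 or 3 or tetraploid clone 1 (0.0671 to 0.0724), under normexp background correction, where the difference was -3.51 (adjusted p = 0.0650, limma), and with only the 2 groups compared in the fit (adjusted p = 0.0518, limma).

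Because diploid clone 1 was alone on its slide, fitting the slide as a block is the same as leaving that clone out. Only Smoc2 then stayed called in triploid against diploid clones, while Thbs1 (-1.77, adjusted p = 0.0861, limma) and Coch (-7.95, adjusted p = 0.0556, limma) kept their direction. Against the tetraploid clones, which lay on the same slide as the triploid ones, Smoc2, Thbs1, Coch and Comp stayed called in that fit.

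Tnc, Postn and Spp1 were lowest in triploid clones 2 and 3, but not in triploid clone 1. Tenascin-C, an anti-adhesive glycoprotein of remodelling tissue, had values of 0.98, 0.85 and -2.03 in the diploid and -0.90, -2.05 and -0.92 in the tetraploid clones. In triploid clone 1 it was at -0.37, above all 3 tetraploid clones, and in triploid clones 2 and 3 it was dark. The triploid minus diploid difference was -3.56 ± 1.31 (adjusted p = 0.170, limma), or -2.58 with dark signals at the lowest detected level.

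The second Tnc probe gave another picture in single clones. In triploid clone 2 it was at -2.97 and well above background, while the probe used was dark there. In tetraploid clone 2 it was dark, while the probe used was not. Its triploid minus diploid difference was -2.26 ± 0.67 (adjusted p = 0.110, limma over 25469 probes), against -3.56 for the probe used. Both probes lay lower in the triploid mean, and neither difference passed the threshold.

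**Figure D2:**
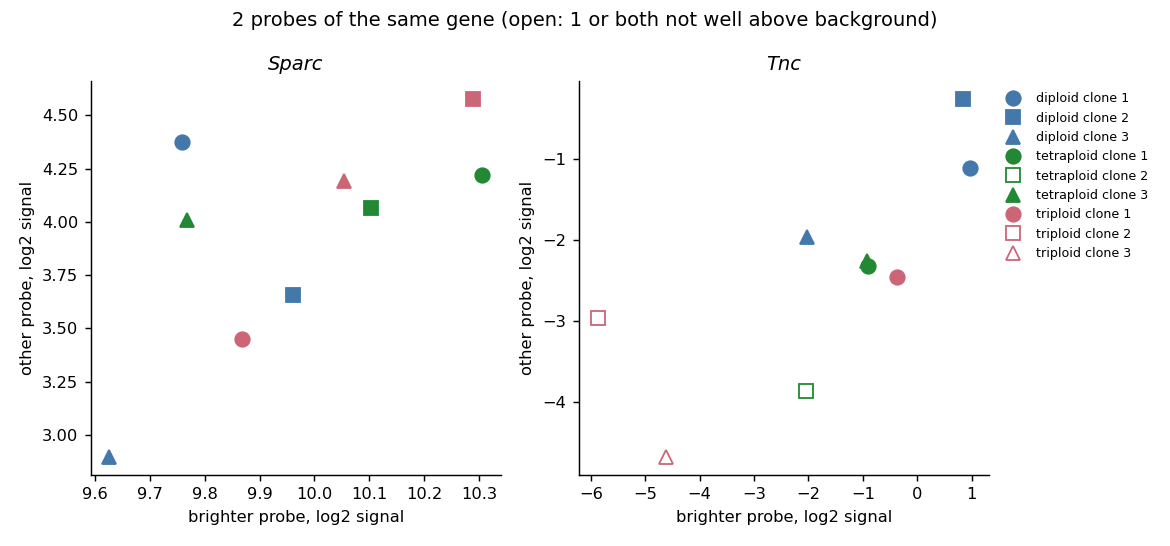
Log2 signal of the probe used (x axis) and of the other probe (y axis) for Sparc and Tnc, relative to the array's 75th percentile, with 1 point per clone, coloured by ploidy and open where either probe was not well above background. For Tnc, triploid clones 2 and 3 are dark by the probe used, while by the other probe triploid clone 3 and tetraploid clone 2 are.

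Periostin, which binds integrins and collagen and is known from fibroblasts of healing tissue, spanned at least 1015-fold over the 9 clones, taken against the lowest detected signal where it was dark. Postn was at 1.99, 4.14 and -0.38 in the diploid, 0.82 and -2.32 in triploid clones 1 and 3, and 3.94, 1.03 and 6.10 in the tetraploid clones, and was dark in triploid clone 2. All 3 triploid values were below all tetraploid values (-6.14 ± 1.83, adjusted p = 0.102, limma), but triploid clone 1 was above diploid clone 3 (-4.37 ± 1.83 against diploid, adjusted p = 0.211, limma).

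Osteopontin, a phosphorylated ligand of integrins and of CD44, was evenly high in the tetraploid clones. Spp1 values were 5.76, 3.96 and 6.16 in the diploid, 5.86, 2.54 and 2.93 in the triploid and 7.22, 6.80 and 7.02 in the tetraploid clones. Every tetraploid clone was above every other clone. The tetraploid minus diploid difference was 1.72 ± 0.85 (adjusted p = 0.382, limma), and the triploid minus tetraploid difference was -3.23 ± 0.85 (adjusted p = 0.0761, limma).

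Leaving out triploid clone 1 changed these calls. Without it Spp1 (-2.56, adjusted p = 0.0390, limma) and Tnc (adjusted p = 0.0141, limma) passed against diploid clones. Both remaining triploid clones were dark for Tnc, so its fold is a bound, at least 13.2 against diploid and at least 5.66 against tetraploid clones. Against tetraploid clones Tnc (adjusted p = 0.0374, limma), Postn (-7.78, adjusted p = 0.0368, limma) and Spp1 (-4.28, adjusted p = 0.00557, limma) passed. Postn was dark in 1 of the 2 clones left, and with that signal at the lowest detected level its difference was -6.79. These fits assume that the remaining 2 triploid clones vary like the other groups. Those 2 clones had the highest correlation between arrays of any pair, 0.985. Triploid clone 1 correlated with them at 0.948 (clone 2) and 0.956 (clone 3), and with diploid clones 1, 2 and 3 at 0.959, 0.964 and 0.949. The number of all features called also changed when single clones were left out (ranges below). The added calls are therefore not read as particular to these genes.

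In triploid against diploid clones, 3 of the 10 genes were called lower (Smoc2, Coch and Thbs1) and none higher, where 1.22% of all 21797 features were called lower. All 3 triploid values lay below all 3 diploid values for 4 of the 10 genes, the same 3 and Comp, and for 10.8% of all features. The median difference of the 10 genes was -3.06, and that of all features 0.10. Since the genes were listed with these results known, nothing is read from these shares.

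In triploid against tetraploid clones, 4 of the 10 genes were called lower (Smoc2, Coch, Comp and Thbs1), where 1.61% of all features were called lower. Groups did not overlap, with the triploid clones lower, for 6 genes (also Postn and Spp1) and for 11.3% of all features. The median difference was -2.89 for the 10 genes and 0.17 for all features. This comparison uses the same triploid arrays as the one with diploid clones, so the calls are not independent of each other.

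In tetraploid against diploid clones, 0 of the 10 genes were called by limma, where 0.0734% of features (16 of 21797) were called in either direction and 3226 had an unadjusted p under 0.05. Of the 10 genes, 1 (Comp) was under 0.05 before adjustment. Only for Spp1 did all 3 tetraploid values exceed all 3 diploid values, which held for 11% of all features. The median difference was 0.15 for the 10 genes and -0.02 for all features.

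**Figure D3:**
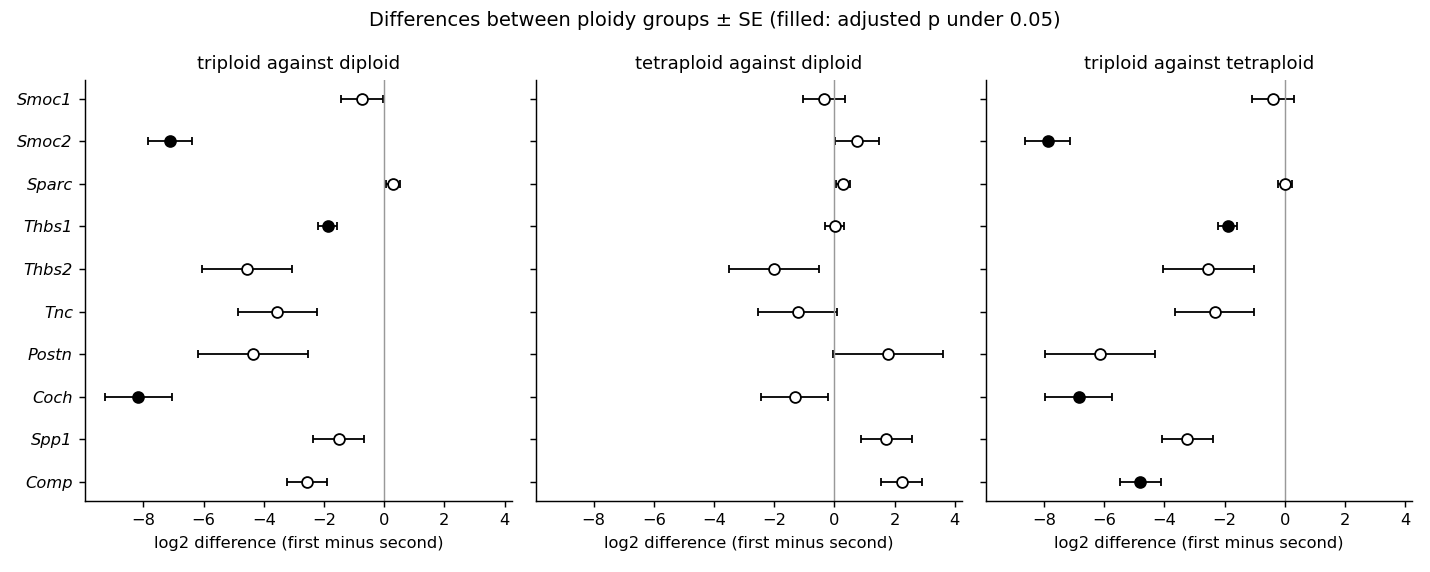
Log2 difference of group means ± SE (x axis) for each of the 10 genes (y axis) in the 3 comparisons; filled points have an adjusted p under 0.05 (limma). Filled points number 3 in triploid against diploid, 0 in tetraploid against diploid and 4 in triploid against tetraploid clones, all on the lower side.

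In the median, clones of the same ploidy differed more in these genes than in all features, dark signals included. The SD was above the median of all features for 9 of the 10 genes in diploid, 7 in triploid and 6 in tetraploid clones. The median SD of the 10 genes was 0.99 in diploid, 1.37 in triploid and 0.83 in tetraploid clones, against 0.31, 0.31 and 0.36 for all features. Thbs2 and Postn had an SD above that of at least 98.1% of features in each group. Thbs1 in the triploid clones (SD 0.07) and Sparc in the diploid clones (SD 0.17) were at the other end, with 4.58% and 19.9% of features below them.

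Within the triploid group, clone 1 had the highest signal for 6 of the 10 genes (Smoc1, Smoc2, Thbs2, Tnc, Postn and Spp1). Clone 2 was the lowest for Smoc1, Smoc2, Postn and Spp1, while Thbs2 and Tnc were dark in both clones 2 and 3 and Coch and Comp in all 3, so these have no order. Over all features, dark signals included, clone 1 was highest for 44.2% and clone 2 lowest for 25.4%. Among the tetraploid clones, clone 3 was highest for 7 genes (Smoc1, Smoc2, Thbs1, Thbs2, Postn, Coch and Comp), against 23.8% of all features. Tetraploid clone 2 was lowest for 7 (Thbs1, Thbs2, Tnc, Postn, Coch, Spp1 and Comp), against 22.4% of all features.

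The diploid clones split the genes into opposite orders. Diploid clone 2 was highest for Smoc1, Sparc, Thbs2 and Postn and lowest for Smoc2, Thbs1, Coch, Spp1 and Comp. Diploid clone 3 was highest for Smoc2, Thbs1, Spp1 and Comp and lowest for Smoc1, Sparc, Thbs2, Tnc and Postn. Over all features, clone 2 was highest for 27% and lowest for 30.1%, and clone 3 highest for 41.7% and lowest for 31.6%.

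**Figure D4:**
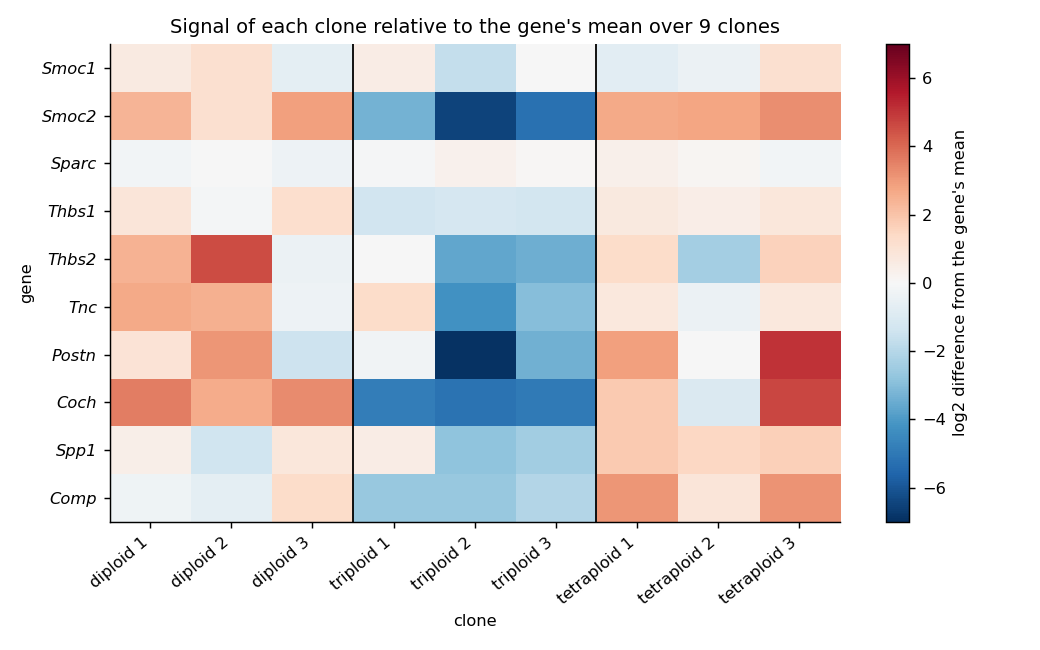
Log2 signal of each of the 9 clones (x axis, grouped by ploidy) minus the gene's mean over the clones, for the 10 genes (y axis); red is above and blue below that mean. Triploid clones 2 and 3 are blue for Smoc2, Thbs2, Tnc, Postn, Coch, Spp1 and Comp, while triploid clone 1 is near the mean or above it for Thbs2, Tnc, Postn and Spp1.

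For each gene, the genes with the most similar pattern were found by the root mean square difference of log2 values over the 9 arrays, after each gene's own mean was taken off, among 12424 other named genes. Dark signals entered these distances with their measured values, so distances that include them rest partly on signals without an order. Smoc2 was closest to Ahrr (0.70), Dkk2 (0.71) and Lmo1 (0.77), where its own profile had a root mean square of 3.66. Ahrr was dark in the triploid clones, and Dkk2 and Lmo1 in triploid clones 2 and 3, where Smoc2 was well above background. Dkk2 encodes a secreted modulator of Wnt signalling. The nearest gene to Coch was Lrrc32 (1.07), followed by Ccdc68 (1.20) and Pgap4 (1.31). Comp lay nearest to Dhrs9 (0.65), Adam8 (0.68) and Me3 (0.68), and Thbs1 to Map6 (0.24), Lrrfip1 (0.26) and Gulp1 (0.27).

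Tnc was nearest to Tbx3 (0.54), a T-box transcription factor, then to Slc38a4 (0.77) and to the collagen receptor subunit Itga11 (0.86). For Thbs2 the closest were Pde8b (0.94), Fstl3 (0.96) and S1pr3 (1.07). Postn had more distant neighbours, Ly6a (1.22), Ppbp (1.43) and Ly6c1 (1.48). Spp1 was closest to Osbpl6 (0.45) and Artn (0.52), and Smoc1 to Sh2d3c (0.38), Ckb (0.40) and Rtn2 (0.41). The neighbours of Sparc, Cuta (0.11), Trpv6 (0.11) and Gdi2 (0.12), reflect a profile whose own root mean square was only 0.22. Thbs2 and Tnc differed from each other by 1.13, against profiles of 2.62 and 2.18.

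Promoter sequence was held in the RefSeq table used here (build GRCm38.p6; 250 bases before to 50 after the start of the transcript) for 6 of the 10 genes, as 9 promoters. Those of Thbs2 and Tnc (1 of 2) are shown because the patterns of these genes over the clones were close, and that of Coch because it was dark in every triploid clone and its promoter is the richest of the 9 in CpG. Sequences run 5′ to 3′ in the direction of the gene. Capitals mark matches on either strand to the TATA box letters TATAAA, which 13.6% of all 32851 promoters of the table held, and to the SMAD element letters CAGACA, which 21.0% held. The AP-1 letters TGANTCA (7.8% of all promoters) and the TEAD letters GGAATG (14.7%) were searched as well and matched none of the 9. No match overlapped another. A match is a description of letters only.

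Coch (chr12:51593091-51593390, + strand): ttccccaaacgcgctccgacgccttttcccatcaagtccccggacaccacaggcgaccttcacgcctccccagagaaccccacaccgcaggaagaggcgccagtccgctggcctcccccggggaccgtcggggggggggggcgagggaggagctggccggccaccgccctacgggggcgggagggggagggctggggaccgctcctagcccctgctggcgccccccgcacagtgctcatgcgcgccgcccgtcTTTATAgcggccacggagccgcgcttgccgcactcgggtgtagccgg
Thbs2 (chr17:14694213-14694512, - strand): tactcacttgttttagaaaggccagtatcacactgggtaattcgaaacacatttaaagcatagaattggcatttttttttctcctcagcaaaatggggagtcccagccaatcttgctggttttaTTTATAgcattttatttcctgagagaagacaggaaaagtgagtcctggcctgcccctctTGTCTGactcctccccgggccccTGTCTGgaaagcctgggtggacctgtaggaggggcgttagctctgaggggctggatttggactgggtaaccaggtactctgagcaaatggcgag
Tnc (chr4:64046966-64047265, - strand): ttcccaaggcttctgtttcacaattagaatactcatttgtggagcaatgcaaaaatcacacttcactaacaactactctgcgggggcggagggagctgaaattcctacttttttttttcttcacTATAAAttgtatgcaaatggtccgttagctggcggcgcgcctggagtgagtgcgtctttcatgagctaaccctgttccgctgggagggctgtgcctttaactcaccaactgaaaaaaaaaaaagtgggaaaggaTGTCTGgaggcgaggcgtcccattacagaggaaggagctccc

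The Coch promoter was 73.7% G and C with 32 CpG, where the medians of all promoters were 52.7% and 7. Its 1 match, to the TATA box on the opposite strand, began 3 bases after the start site. Thbs2 (48.3% G and C, 4 CpG) held 1 TATA box match and 2 SMAD matches, and the Tnc promoter shown (47.3%, 10 CpG) held 1 of each. A second Tnc promoter, which overlaps the one shown, had 54.0% G and C, 16 CpG, 1 TATA box match and 2 SMAD matches. Among the promoters not shown, that of Sparc (55.3%, 4 CpG) held 2 SMAD matches and no TATA box match. Of 2 Spp1 promoters, 1 held 1 of each, and of 2 Postn promoters, 1 held a TATA box match.

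Other matricellular genes, from a list of 30 of which 20 were tested, were called lower in triploid clones for some members and higher for none. Against diploid clones 4 of the 20 were lower, where 1.22% of all features were: the tenascin Tnn (at least 4.83-fold), the CCN family genes Ccn5 (-4.12 ± 0.76) and Ccn3 (-4.04 ± 0.73, dark in 2 of 3 triploid clones) and the elastic fibre protein gene Fbln5 (-2.66 ± 0.28). Their adjusted p lay between 0.00448 (Fbln5) and 0.0383 (Ccn5; limma). The median of the 20 was -0.33, against 0.10 over all features.

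Against tetraploid clones 6 of the 20 were lower, where 1.61% of all features were: Tnn (at least 23.0-fold), Sparcl1 (at least 20.5-fold), which encodes a relative of Sparc, Ccn3 (-5.94 ± 0.73), Ccn5 (-5.01 ± 0.76), Fbln5 (-2.60 ± 0.28) and Ecm1 (-1.54 ± 0.29). The median of the list was -1.01, against 0.17 for all features. Ccn1 and Ccn2, both target genes of YAP and TAZ, differed by 0.01 ± 0.36 (adjusted p = 0.995, limma) and -2.12 ± 0.76 (adjusted p = 0.162, limma) between triploid and diploid clones. In tetraploid against diploid clones 0 of the 20 were called by limma, and 7 had an unadjusted value under 0.05, as had 14.8% of all features.

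Receptors and binding partners of these proteins formed a list of 30 genes, of which 29 were on the array and 21 tested. Against diploid clones the integrin subunits Itga8 (at least 9.94-fold, adjusted p = 0.0495, limma) and Itga5 (-1.51 ± 0.22) and the syndecan Sdc3 (-3.02 ± 0.59) were lower in triploid clones. Only the diploid group let Itga8 through the filter on dim probes, so for Itga8 the filter leans towards this result. The Itga8 call lay close to the threshold, and its value with no filter is not given here. Against tetraploid clones Sdc3 (-2.73 ± 0.59), Sdc2 (-1.76 ± 0.28) and Itga5 (-1.27 ± 0.22) were lower. None was higher in either comparison, and 0 of 21 were called by limma in tetraploid against diploid clones, where 5 were under 0.05 before adjustment. Over all features, 1.22% were called lower against diploid and 1.61% against tetraploid clones. In tetraploid against diploid clones 0.0734% of all features were called, and 14.8% were under 0.05 before adjustment.

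Several receptors of that list were well above background in all 9 clones and were not called. The thrombospondin receptor gene Cd47 differed by 0.55 ± 0.29 (adjusted p = 0.310, limma) between triploid and diploid clones. For Cd44, a receptor of osteopontin, the difference was 0.10 ± 0.35 (adjusted p = 0.906, limma), and for Itgav, the integrin subunit shared by several receptors of these proteins, -0.08 ± 0.35 (adjusted p = 0.930, limma). List medians were -0.25 against diploid and -0.86 against tetraploid clones.

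The smooth muscle markers of the cell type lists were higher in sum in the diploid clones than in all others, and the triploid and tetraploid sums overlapped. Their summed linear level, relative to the array's 75th percentile, was 1798 to 2348 in diploid, 713 to 1148 in triploid and 1026 to 1646 in tetraploid clones, with 3 or 4 of 5 genes well above background in diploid and 3 of 5 in the other clones. Its part in the lower triploid signals was not tested.

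**Figure D5:**
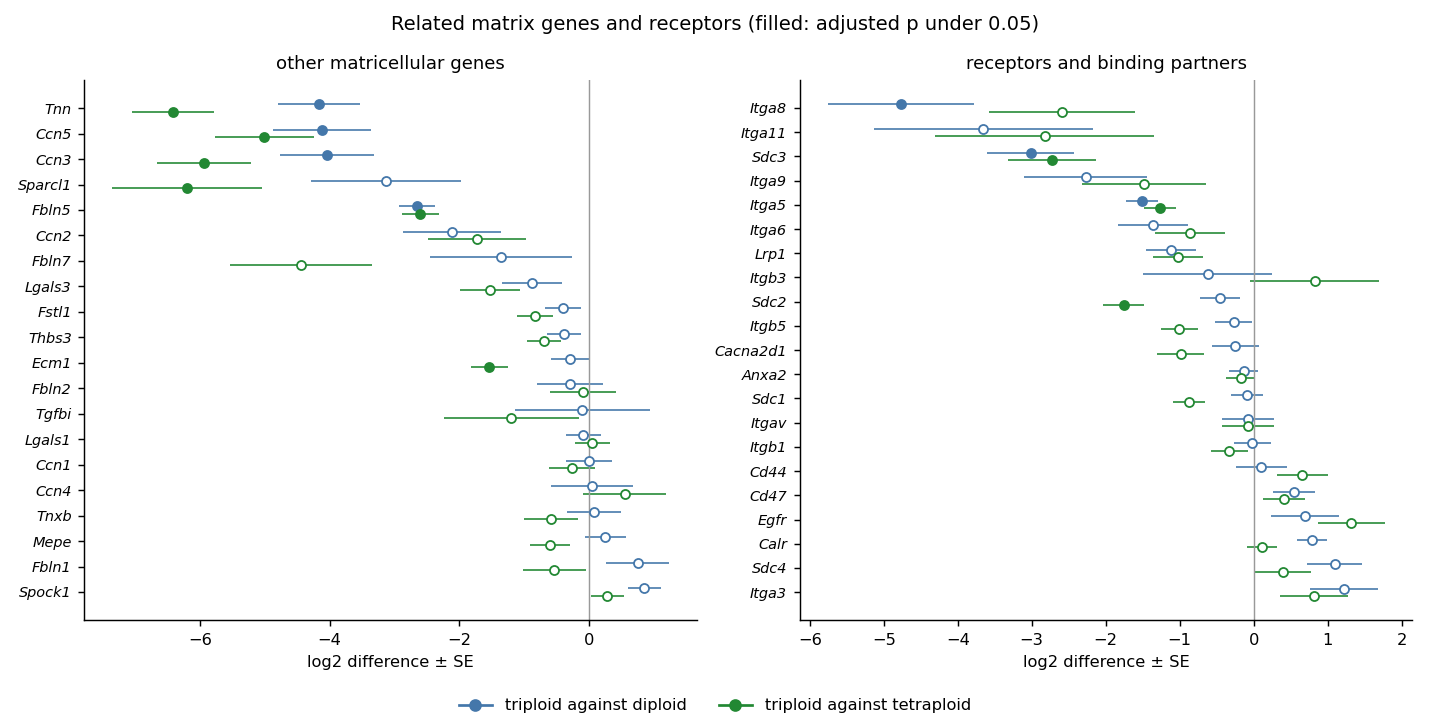
Log2 difference ± SE (x axis) of the tested genes of the 2 related lists (y axis), triploid against diploid in blue and triploid against tetraploid in green; filled points have an adjusted p under 0.05 (limma). Each filled point lies below 0.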

How the data were processed

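The deposited scanner files hold intensity values per spot: per the file headers, Agilent Feature Extraction 10.7.3.1 subtracted background and spatially detrended the processed signal, with no normalization between arrays, and the array was designed on build mm9. A deposited table of the authors gives log2 values. Checked here, 100% of them lay within 0.001 of the scanner values less a constant per array and less diploid clone 1, which the labels name as reference. It served as an alternative.

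Spots of a probe were averaged without outlier flags, and log2 signals were set relative to the 75th percentile of each array. Probes were kept when well above background on every clone of at least 1 group (25469 of 55681). Probe accessions were named through RefSeq (26413 probes named, 29268 not) and the brightest probe stood for a gene, giving 12434 named genes and 9363 unnamed probes. All 3 groups entered one limma 3.58.1 fit (R 4.3.3; lmFit, eBayes, prior degrees of freedom 3.19) without covariates. In simulated data 94% of features changed by 4 on the log2 scale and 62% of those changed by 2 were called.

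The 10 genes, the related lists and the marker lists were chosen with earlier results of these data known. Genes named in the text were the 10 members, up to 3 most similar genes for each, and called genes of the related lists; 2 genes under these rules are not reported here. Ccn1, Ccn2, Thbs3, Cd47, Cd44 and Itgav were chosen after their values were seen. Alternatives were 19: scaling, background, value source, filter, probe rule, slide, replicate block, samples in the fit, variance model, and each clone left out.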

Additional observations from a re-analysis of the deposited data

How the results depend on the processing

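Of 190 values of the 10 genes under the alternatives in each comparison, 174 kept their direction and side of the threshold in triploid against diploid clones, 183 in tetraploid against diploid and 169 in triploid against tetraploid clones. The signs that turned belonged to differences that were never called. They were Sparc, triploid against tetraploid (-0.21 by quantile normalization, -0.0079 with the percentile over detected probes, -0.0072 with all probes averaged, and -0.13 to 0.13 leaving out single clones), Thbs1, tetraploid against diploid (-0.11 with the percentile over detected probes and -0.36 to 0.28 leaving out clones), Smoc1 (-0.92 to 0.035 in tetraploid against diploid and -0.85 to 0.25 in triploid against tetraploid clones, leaving out clones) and Coch (-2.73 to 0.11 in tetraploid against diploid clones, leaving out clones).

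The number of the 10 genes called in triploid against diploid clones was 3, fell to 1 with the slide as a block and to 2 with no filter on dim probes or only the 2 groups in the fit, and was 1 to 5 leaving out single clones. In triploid against tetraploid clones it was 4, fell to 3 under normexp, with no filter or with only the 2 groups, and was 2 to 7 leaving out single clones. In tetraploid against diploid clones it was 0 under each of the 19 alternatives.

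Over all features, 400 were called in triploid against diploid clones, but 103 with no filter on dim probes, 81 with the slide as a block, 206 with only the 2 groups in the fit and 61 to 1434 leaving out single clones. In tetraploid against diploid clones 16 were called, but 97 with the percentile over detected probes, 5 by quantile normalization, 9 by normexp, 0 with no filter, 0 with the slide as a block and 0 to 40 leaving out single clones. In triploid against tetraploid clones 589 were called, but 198 with no filter, 284 with the slide as a block, 369 with only the 2 groups and 117 to 1312 leaving out single clones. The cause of these shifts was not tested, except that fewer clones or more features enter some fits.

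The labels do not say that clone numbers pair the clones, and deviations of same-numbered clones correlated only weakly, between -0.13 and 0.09. Even so, the same-numbered clone was the best partner for each triploid and tetraploid pair and for diploid and tetraploid clones 2 and 3. It was so for no diploid and triploid pair. With the clone number as a replicate block, 219 features were called in triploid against diploid and 0 in tetraploid against diploid clones. In triploid against tetraploid clones 465 were called. The same members were called as without the block (3, 0 and 4).

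Dark signals have no order. Coch and Comp in the triploid clones therefore have bounds only.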

Other observations

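Smoc2 and Thbs2 are adjacent protein-coding genes on mouse chromosome 17 in the RefSeq gene table, with 0 others between them; this pair was looked at after its values were seen. Of the nearest genes with a test, 1600012H06Rik differed by -0.29 ± 0.26 (adjusted p = 0.584, limma) and Phf10 by 0.84 ± 0.32 (adjusted p = 0.177, limma) between triploid and diploid clones. Both lie on the Thbs2 side of the pair. None of the genes looked at on the Smoc2 side was tested, so that side is not described. Dact2 and Wdr27 were on the array but did not pass the filter on dim probes.

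The related lists held genes whose tetraploid minus diploid difference was large without passing the test: Fbln7 (3.08 ± 1.10, adjusted p = 0.244, limma), Sparcl1 (3.07 ± 1.16, adjusted p = 0.264, limma), Tnn (2.25 ± 0.63, adjusted p = 0.155, limma) and Ccn3 (1.90 ± 0.73, adjusted p = 0.272, limma). They were chosen after their values were seen.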
